A study of Mus musculus with 16 samples.

Results

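The comparison described here spans a whole culture path, from c-kit-positive mast cell progenitors to mast cells of the mucosal type (MMC). The arrays were chosen by their titles: 4 of progenitors and 4 of MMC, which are 8 of the 16 arrays in the series. Bone marrow of Balb/c mice was cultured with IL-3 at 5 ng/ml and SCF, the ligand of c-kit, at 20 ng/ml. Progenitors were the cells that carried c-kit (CD117) and were pulled out with magnets on day 6. MMC came from the same kind of culture after 4 weeks, followed by 5 more days with IL-9 and TGF-beta. Bone marrow-derived mast cells (BMMC) at 4 weeks, before those cytokines, stand between the 2 groups and are used here only to place the levels along the path. No group kept for the same 5 days without IL-9 and TGF-beta is used here, so time in culture and the cytokines cannot be told apart over the last step. The day 6 cells were called putative committed progenitors by the submitters, and the sort kept cells by c-kit alone. The labels call the 4 arrays of a group replicates without naming separate animals or cultures, so each p-value reflects only how far these arrays scatter, and that scatter may be technical.

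A microRNA (miRNA) is a short RNA cut from a hairpin precursor, and one or both arms of the hairpin can be kept as the mature strand. Bases 2 to 8 of the mature strand, the seed, set which messenger RNAs are bound and repressed, so miRNAs that share a seed can share targets. In blood formation, miR-223 marks the granulocyte and monocyte line, miR-451 the red cell line, miR-126-3p and miR-196b stem and early progenitor cells, and the miR-17-92 cluster dividing cells. Mucosal mast cells are the T cell-dependent mast cells of the gut and airway lining, and IL-9 with TGF-beta is a standard way to give cultured mast cells that character.

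The sequences that carry the comparison are shown with the seed in capitals, 5′ to 3′, from RefSeq on mouse build GRCm38.p6. The first set has one seed in all 6 members, each lower in MMC, and comes from 3 hairpin clusters.
miR-17: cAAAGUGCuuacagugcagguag
miR-20a: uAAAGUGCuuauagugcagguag
miR-106a: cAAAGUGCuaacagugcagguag
miR-20b: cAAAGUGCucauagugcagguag
miR-93: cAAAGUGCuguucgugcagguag
miR-106b: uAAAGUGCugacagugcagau
MiR-17 lies at chr14:115043684-115043706 and miR-20a at chr14:115044183-115044205, both on the plus strand. MiR-106a (chrX:52742541-52742563) and miR-20b (chrX:52742159-52742181) lie on the minus strand of chromosome X. MiR-93 (chr5:138165574-138165596) and miR-106b (chr5:138165787-138165807) lie on the minus strand within Mcm7, a gene of DNA replication.

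The second set shows members of one seed group that moved in opposite directions. MiR-146a (chr11:43374435-43374456, minus strand) fell and miR-146b (chr19:46342790-46342811, plus strand) rose, with 2 of 22 bases different between them. MiR-130a (chr2:84741116-84741137, minus strand) and miR-130b (chr16:17124071-17124092, minus strand) fell, and miR-721 (chr5:136375777-136375797, minus strand, within Cux1) rose.
miR-146a: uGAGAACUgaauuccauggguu
miR-146b: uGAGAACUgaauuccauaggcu
miR-130a: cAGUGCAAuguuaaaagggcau
miR-130b: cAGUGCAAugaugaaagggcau
miR-721: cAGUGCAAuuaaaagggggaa

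The third set holds the largest fall, miR-223 (chrX:96242884-96242905, plus strand), the largest rise, miR-135a* (chr9:106154179-106154200, plus strand, within Glyctk), the pair of miR-34 members that rose, miR-34a (chr4:150068473-150068494, plus strand) and miR-34b-5p (chr9:51103610-51103632, minus strand), and miR-21 (chr11:86584120-86584141, minus strand, within Vmp1) and miR-22 (chr11:75463772-75463793, plus strand, within Mir22hg).
miR-223: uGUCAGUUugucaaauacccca
miR-135a*: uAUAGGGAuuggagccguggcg
miR-34a: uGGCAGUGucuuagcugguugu
miR-34b-5p: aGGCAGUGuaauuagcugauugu
miR-21: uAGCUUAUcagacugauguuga
miR-22: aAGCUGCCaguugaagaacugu

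Levels are log2 values of an array's scaled spot signal, the brightest probe standing for its miRNA, with everything below a scaled signal of 11.8 (3.56 on the log2 scale) raised to that floor. The extraction software called each probe well above background or not on each array, and 164.5 ± 19.1 (SD, n = 4) mouse miRNAs passed on the progenitor arrays against 178.25 ± 9.22 (SD, n = 4) on the MMC arrays. The counts overlapped, at 137 to 178 and 171 to 191, and differed by 13.75 (exact two-sided permutation test, p = 0.286, 70 arrangements). Before scaling, the 75th percentile over the 205 probes above background on every one of the 16 arrays was 393 ± 52.6 intensity units in progenitors and 780 ± 62.1 in MMC (SD, n = 4 each), while the bright corner control features read 1431 ± 160 and 773 ± 96.6. Scaling moved MMC down by 1.00 relative to progenitors on the log2 scale. Progenitor replicate 4 stood apart: it had the fewest miRNAs above background (137) and its dimmest probe above background read 39.2 intensity units, against 8.65 to 10.7 on the other progenitor arrays. Across the tested miRNAs, arrays correlated with a median r of 0.967 within progenitors, 0.994 within MMC and 0.809 between the groups, a description across miRNAs that are not independent replicates. These are bulk samples, in which fewer cells of a type and less RNA per cell cannot be told apart.

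On the main scale the miRNAs of dividing and of uncommitted blood cells were lower in MMC. The 4 tested members of a granulocyte and monocyte list, 2 of them arms of miR-142, were lower too. The miR-23, miR-27 and miR-24 clusters and 2 p53-responsive miRNAs of the miR-34 family were higher. Of 7 tested miRNAs that TGF-beta raises in other cells, 5 were higher, miR-23a, miR-27a and miR-24 of those clusters among them, and 1 lower. Of 188 mouse miRNAs tested with limma, 137 differed at a Benjamini-Hochberg adjusted p under 0.05 (72.9%), 56 higher (29.8%) and 81 lower (43.1%) in MMC. The larger changes were mostly falls: of 79 miRNAs that changed at least 2-fold (42%), 23 rose and 56 fell, and of those that changed at least 8-fold, 11 fell and 1, miR-135a*, rose. The 4 MMC arrays did not overlap the 4 progenitor arrays for 127 miRNAs (67.6%). All 137 called miRNAs had one sign on both slides, but groups without overlap can give no other outcome, so this adds no support. A miRNA that passes the background filter through one group is more likely to differ, so the 145 measured on at least 3 arrays of both groups are given too: 109 of them were called (75.2%), 45 higher (31%) and 64 lower (44.1%). The split of directions depended on how arrays were made comparable, with 40.9% of calls higher here, 51.1% when scaled on the median of the same 205 probes, 55.2% after quantile normalisation, 69.4% in the deposited value table, 70.5% with no scaling, 73.7% when scaled on the 75th percentile of all probes and 20% after normexp background correction. Across 13 alternatives in processing 67 of the 137 calls, 33 higher and 34 lower, were called in the same direction each time, and 27 were called in the opposite direction at least once. Among the 13 are a fit of the 8 arrays alone, a slide block and a replicate block. These leave the differences unchanged and can alter only the calls. The median difference over all tested miRNAs was -0.14.

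**Figure D1:**
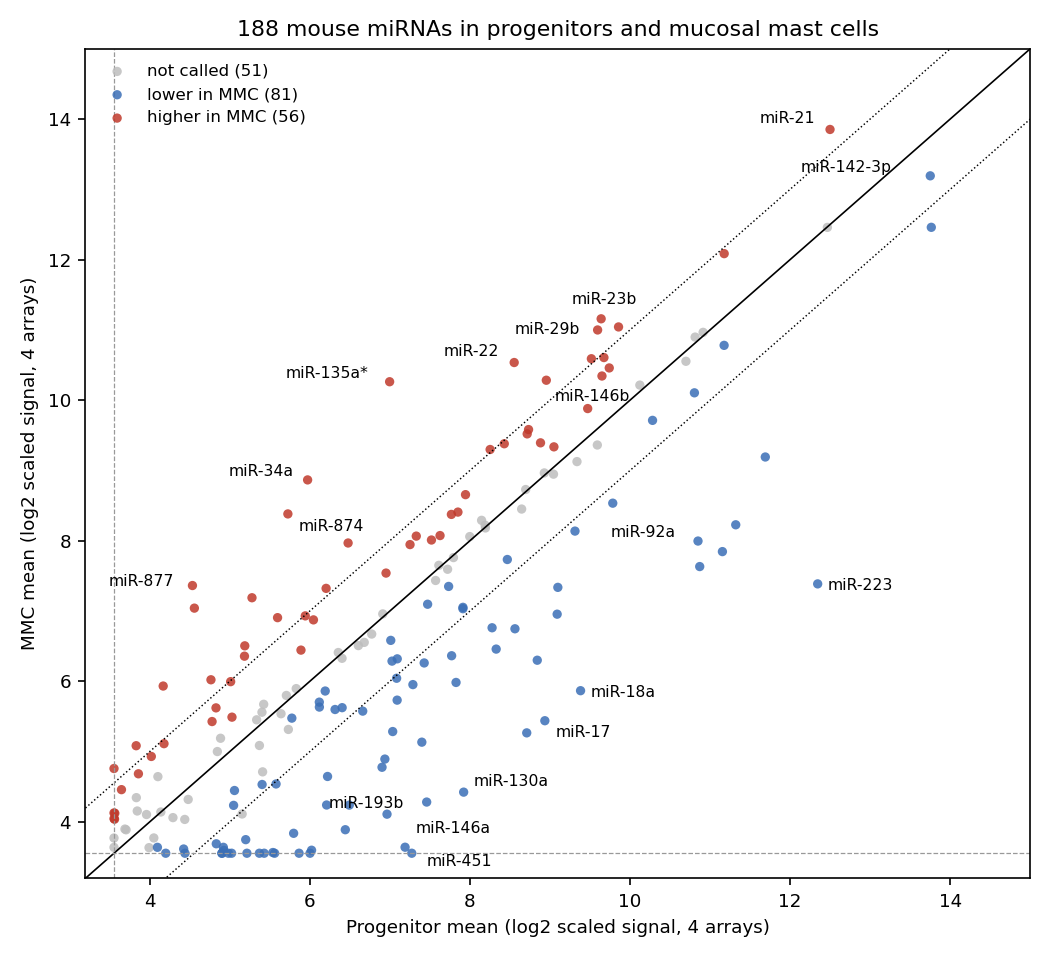
Mean log2 scaled signal of each of the 188 tested miRNAs in progenitors (x axis, 4 arrays) and MMC (y axis, 4 arrays); dotted lines mark a 2-fold change and dashed lines the floor at 3.56. Blue points (81) were lower in MMC, red points (56) higher and grey points (51) not called; miR-223 lies farthest below the diagonal and miR-135a* farthest above it.

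The miR-17-92 cluster and its paralogs, which drive the cell cycle and survival of dividing cells, were lower in MMC throughout. Of 21 members on the array 16 were tested and 16 fell, and the other 5 were well above background on none of the 8 arrays. For the 13 measured in both groups, 13 fell, against 44.1% of all miRNAs so measured, with a median difference of -2.85 against -0.14. The summed scaled signal of the list was 14282 to 18517 on the progenitor arrays and 2110 to 2688 on the MMC arrays. The median stayed below 0 under each of the 13 alternatives, between -2.53 and -1.35 over the 16 tested members.

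MiR-17, the member that names the cluster, read 8.97, 9.22, 8.83 and 8.73 on the progenitor arrays and 5.47, 5.52, 5.08 and 5.70 on the MMC arrays. The 2 groups were far apart, and the drop was 11.3-fold (log2 -3.50, SE 0.18, adjusted p = 4.28e-10 in limma). MiR-18a read 9.38, 9.56, 9.35 and 9.24 in progenitors against 5.84, 6.04, 5.52 and 6.08 in MMC, a drop of 11.4-fold (log2 -3.52, SE 0.16). MiR-19a, known as the oncogenic part of the cluster, read 11.18, 11.39, 11.05 and 11.00 against 7.82, 7.89, 7.53 and 8.14. Its 8 values were as cleanly split as those of miR-17, and the difference was -3.31 (SE 0.18). MiR-92a read 10.72, 11.12, 10.82 and 10.75 against 7.94, 8.07, 7.83 and 8.16, a 7.23-fold fall. MiR-20a fell by 3.09 and miR-19b fell by 2.50 on the log2 scale.

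The 3 clusters did not move by the same amount. On chromosome 14, 9 mature strands of the miR-17-92 hairpins (chr14:115043684-115044496, which includes Mir17hg) fell by between 1.84 and 3.52 on the log2 scale. On chromosome X, miR-106a (-3.44, SE 0.19) and miR-20b (-3.24, SE 0.15) fell about as far. MiR-19b and miR-92a lie in both of these clusters, so their falls cannot be assigned to either. A further strand of the chromosome 14 hairpins, miR-19a*, fell by 0.65, with its 4 MMC values at the floor. In Mcm7 on chromosome 5, miR-93 was lower by 2.13 (SE 0.13) on the log2 scale, or 4.39-fold, miR-25 fell 3.39-fold (-1.76, SE 0.19) and miR-106b fell 2.26-fold (-1.18, SE 0.12). MiR-106b read 9.34, 9.40, 9.28 and 9.24 in progenitors and 8.12, 8.11, 8.15 and 8.17 in MMC. The spread within each group was small, and the gap was still the shortest among the 6 members with the AAAGUGC seed. Under scaling on all probes it came to 0.0024, with no fall left. Members that differ by few bases may share probe signal: miR-17 and miR-106a differ at 1 of 23 positions, and miR-17 and miR-93 at 4 of 23.

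**Figure D2:**
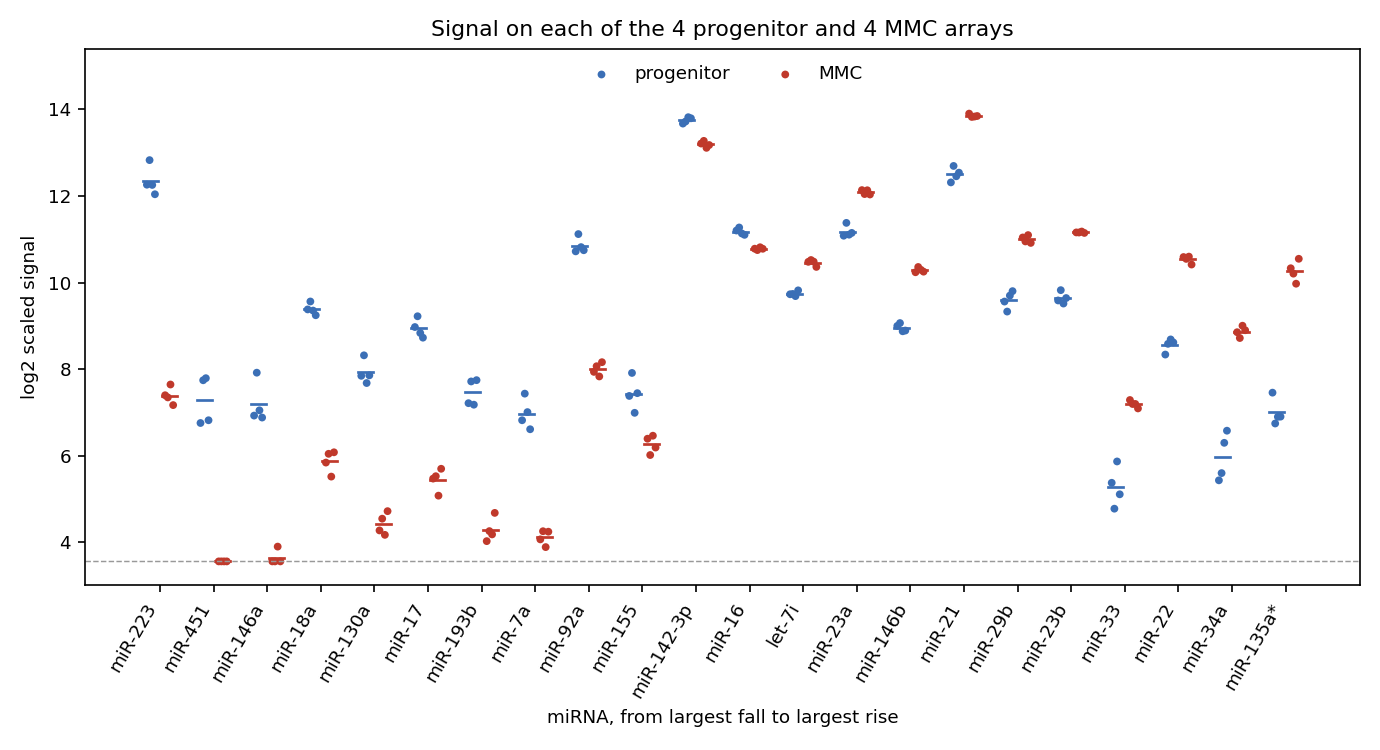
Log2 scaled signal on each of the 4 progenitor arrays (blue) and 4 MMC arrays (red) for 22 miRNAs ordered from the largest fall to the largest rise; points are arrays, short bars are group means and the dashed line is the floor at 3.56. The 2 groups do not overlap for any of the 22, against 127 of all 188 tested miRNAs (67.6%), and MMC points of miR-451 lie on the floor.

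MiRNAs of other blood lineages and of early progenitors were the next group to fall. MiR-223, which restrains granulocyte expansion, showed the largest difference of all 188: 12.26, 12.83, 12.25 and 12.04 on the progenitor arrays against 7.40, 7.35, 7.64 and 7.17 on the MMC arrays. It remained well above background on all 4 MMC arrays and was 31.1-fold lower (log2 -4.96, SE 0.19, adjusted p = 5.80e-11 in limma). MiR-451, which is cut by Ago2 in red cell precursors, read 6.75, 7.74, 7.79 and 6.82 in progenitors and was well above background on 0 of 4 MMC arrays. Against the floor of 11.8, at which all 4 MMC values lie, it was at least 13.2-fold lower (log2 -3.72), and the difference was -2.71 when all probes set the scale and -2.24 after normexp.

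The haematopoietic stem and progenitor list had 6 tested members of 16 on the array, and 6 fell, against 43.1% of all tested miRNAs, with a median of -1.59. The 4 measured in both groups fell too, and 3 of the 6 were called lower when all probes set the scale. MiR-130a read 7.84, 8.32, 7.68 and 7.86 in progenitors and 4.27, 4.54, 4.17 and 4.72 in MMC, an 11.3-fold fall (log2 -3.50, SE 0.15). MiR-196b, which lies among the Hoxa genes, read 6.15, 6.01, 5.44 and 6.42 and was above background on no MMC array, so against the floor it was at least 5.46-fold lower (log2 -2.45, or -1.44 when all probes set the scale). MiR-126-3p, from an intron of the endothelial gene Egfl7, read 5.75, 5.91, 5.03 and 4.18, passed on 3 progenitor arrays and on 0 MMC arrays, and was at least 3.16-fold lower against the floor (log2 -1.66, or -0.75 with the floor doubled). MiR-10a, from the Hoxb locus, read 5.38, 5.78, 4.54 and 6.62 against 4.76, 4.47, 4.95 and 3.99. Its groups overlapped, and its 2.05-fold fall (adjusted p = 0.0182 in limma) was not called without progenitor replicate 4 (-0.69) or without MMC replicate 4.

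The lists of marker miRNAs of other cell types moved as follows, and their part in the differences was not tested. The granulocyte and monocyte list had 4 tested members of 5: miR-223, miR-322 and both arms of miR-142, which all blood cells carry. All 4 fell, against 43.1% of all tested miRNAs, with a median of -0.72 that turned positive under 3 of 13 alternatives. With no scaling or with all probes setting the scale 1 was called higher and 1 lower. The list's summed scaled signal was 19874 to 22635 in progenitors and 10230 to 11335 in MMC. MiR-142-3p was its brightest member, so the sum is not particular to granulocytes and monocytes. The red cell and megakaryocyte list had 2 tested members of 4, of which miR-451 fell. The other, miR-486, passed background on 0 progenitor and 4 MMC arrays and was not called (0.14, SE 0.22, adjusted p = 0.582 in limma). With all probes setting the scale, no scaling, quantile normalisation, total signal per miRNA or the deposited table, 1 was called higher and 1 lower. The sum of this list went from between 129 and 258 to between 18.7 and 24.4. The lymphoid list had 4 tested members of 9, all of the miR-181 family, and its sum was 363 to 556 in progenitors and 202 to 214 in MMC. In that family miR-181d fell by 2.25 and miR-181b fell by 1.75 on the log2 scale, while miR-181a read 6.36 ± 0.27 and 6.41 ± 0.08 (SD, n = 4 each) and was not called. The stromal and endothelial list had 3 tested members of 12, of which 2 fell, against 43.1% of all tested miRNAs. Its sums were 107 to 199 and 75.8 to 104. 1 of 15 muscle, liver and neuron miRNAs was tested and not called, and the 9 members of the miR-200 family, the miRNAs of epithelium, were well above background on none of the 8 arrays. Mast cells have no defining miRNA on these lists. MiR-142-3p, which all blood cells carry, read 13.75 ± 0.07 in progenitors and 13.19 ± 0.07 in MMC (SD, n = 4 each), a 1.47-fold fall that reversed to a rise of 0.62 when all probes set the scale.

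Several clusters outside these lists were lower too. MiR-193b, from a cluster on chromosome 16 with miR-365, read 7.21, 7.71, 7.18 and 7.74 in progenitors and 4.02, 4.26, 4.18 and 4.68 in MMC, a 9.05-fold fall (log2 -3.18, SE 0.22). Its cluster partner miR-365 fell 2.65-fold (-1.41, SE 0.14). MiR-191 and miR-425, which share an intron of Dalrd3 on chromosome 9, fell by 1.96 (SE 0.20) and 1.87 (SE 0.08) on the log2 scale. MiR-425 read 8.28, 8.52, 8.16 and 8.35 against 6.44, 6.49, 6.47 and 6.43, with an SD of 0.03 over the 4 MMC arrays.

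Among single miRNAs, miR-7a, from an intron of Hnrnpk among other loci, read 6.82, 7.43, 7.01 and 6.61 in progenitors and 4.06, 4.25, 3.89 and 4.24 in MMC. That 7.23-fold fall came with a fall of miR-7b, which has the same seed and whose 4 MMC values all sat at the floor, so its difference of -2.31 is cut short there. MiR-148a, known to repress the DNA methyltransferase Dnmt1, fell 3.52-fold (log2 -1.81, SE 0.11). Of the numbered mouse cloning series, miR-711 fell by 2.54 (SE 0.46) on the log2 scale and miR-706 fell by 2.42. MiR-706 had 3 of its 4 MMC values at the floor, which sets that difference, and it was -1.13 when all probes of a miRNA were averaged. MiR-711 was uneven, with 7.75 on MMC replicate 1 against 5.44 to 6.17 on the other MMC arrays, and without that array its difference was -3.02. MiR-720, an entry that overlaps a tRNA, read 13.76 ± 0.28 and 12.46 ± 0.05 (SD, n = 4 each), and 4 of the 5 tested entries that match tRNA or rRNA fell, against 43.1% of all tested miRNAs, with a median of -1.30. Of these entries 2 were called lower when all probes set the scale and 0 in the deposited value table.

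The rises were led, in number, by the hairpin clusters of miR-23, miR-27 and miR-24, which are transcribed during myeloid maturation. Of 9 strands on the array 7 were tested, all 7 were measured in both groups, and 7 rose, against 31% of all miRNAs so measured, with a median difference of 1.07. The summed scaled signal was 5332 to 6078 on the progenitor arrays and 10908 to 11573 on the MMC arrays. Each of the 7 had progenitor and MMC arrays that did not overlap, as did 103 of all 145 miRNAs so measured. The median of the list stayed above 0 under all 13 alternatives, between 0.91 and 2.25.

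MiR-23b read 9.59, 9.82, 9.51 and 9.64 in progenitors and 11.16, 11.16, 11.18 and 11.15 in MMC, a 2.86-fold rise (log2 1.52, SE 0.08, adjusted p = 5.71e-10 in limma). MiR-23a read 11.08, 11.38, 11.11 and 11.15 against 12.14, 12.04, 12.13 and 12.03, a 1.88-fold rise. All MMC values of both miRNAs lay above all progenitor values. MiR-27b (1.07, SE 0.08), miR-27a (0.69, SE 0.08) and miR-24 (0.93, SE 0.06) rose as well. MiR-24 is made from both clusters, at chr13:63301251-63301272 and chr8:84208875-84208896. The second strands of its hairpins differ between the loci, at 5 of 22 positions, so their probes may still share signal. MiR-24-1* of chromosome 13 rose by 1.32 (SE 0.10) and miR-24-2* of chromosome 8 by 1.12 (SE 0.18). After normexp 6 of the 7 strands of the list were called higher.

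MiR-21, an abundant miRNA that TGF-beta raises by way of SMAD proteins in other cells and that represses Pdcd4, read 12.31, 12.69, 12.45 and 12.54 in progenitors and 13.90, 13.83, 13.83 and 13.85 in MMC. All 4 MMC arrays lay above all 4 progenitor arrays, and the rise was 2.55-fold (log2 1.35, SE 0.09, adjusted p = 4.14e-09 in limma). Of the list of miRNAs that TGF-beta raises elsewhere, 7 of 11 were tested, 5 rose, against 29.8% of all tested miRNAs, and 1 fell, with a median of 0.91. Of the 5, miR-23a, miR-27a and miR-24 are also counted in the list above. Besides these and miR-21, miR-494 rose (1.19, SE 0.24), with groups that overlapped. The member that fell was miR-155, at 7.38, 7.91, 6.99 and 7.44 in progenitors and 6.39, 6.01, 6.46 and 6.19 in MMC. Its 2.25-fold fall (-1.17, SE 0.17) came to 0.01, with no fall left, when all probes set the scale.

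MiR-34a and miR-34b-5p, both transcribed under p53, were among the largest rises. MiR-34a read 5.43, 5.60, 6.30 and 6.58 in progenitors and 8.85, 8.72, 9.00 and 8.90 in MMC. The progenitor values were spread over more than 1 log2 unit and the MMC values were tight, and the rise was 7.43-fold (log2 2.89, SE 0.22, adjusted p = 1.68e-08 in limma). MiR-34b-5p read 4.30, 4.00, 5.14 and 4.80 against 7.05, 6.91, 7.18 and 7.03, with 2 of 4 progenitor arrays well above background, a rise of 2.48 (SE 0.21). The other 3 members of the family on the array were well above background on none of the 8 arrays.

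The miR-29 family, which represses collagens and the DNA methyltransferases Dnmt3a and Dnmt3b, rose in 4 of 5 tested strands, against 29.8% of all tested miRNAs, and in 3 of 5 with 2 lower after normexp. MiR-29b read 9.56, 9.33, 9.70 and 9.80 in progenitors and 11.04, 10.95, 11.10 and 10.92 in MMC, a 2.65-fold rise (log2 1.40, SE 0.08). MiR-29c rose by 1.05 (SE 0.09) and miR-29a by 0.85 (SE 0.09). MiR-26a (0.80, SE 0.08) and miR-26b (0.51, SE 0.08), which share a seed, rose by less. MiR-22 read 8.34, 8.58, 8.68 and 8.62 against 10.59, 10.55, 10.60 and 10.42, a 3.95-fold rise (log2 1.98, SE 0.08). MiR-33, which lies within Srebf2 and represses cholesterol export, read 5.37, 4.77, 5.87 and 5.11 in progenitors against 7.29, 7.19, 7.19 and 7.09. No progenitor value came near the MMC values, and the rise was 3.76-fold (1.91, SE 0.17).

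Within the let-7 family, which rises as many cells mature, 12 of 17 strands were tested and 8 of them were not called. Let-7i rose, from 9.74 ± 0.06 to 10.46 ± 0.07 (SD, n = 4 each, log2 0.72, SE 0.10), and 3 fell, against 29.8% and 43.1% of all tested miRNAs. Those 3 were let-7e, the second strand let-7c-2* and miR-202-3p, which the list also holds. The counts became 8 higher and 0 lower when all probes set the scale or in the deposited value table, and 9 and 0 with no scaling. The family median of -0.17 was close to that of all tested miRNAs (-0.14) and changed sign under 5 of 13 alternatives. Of the 9 members with the GAGGUAG seed, 1 was called higher and 1 lower on the main scale.

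The largest single rise was that of miR-135a*, which read 7.46, 6.74, 6.90 and 6.90 in progenitors and 10.33, 10.20, 9.97 and 10.55 in MMC, a 9.61-fold rise (log2 3.26, SE 0.18, adjusted p = 4.82e-10 in limma). MiR-877, from the Abcf1 locus, rose 7.10-fold (2.83, SE 0.26), with progenitor replicate 4 at the floor and the other progenitor arrays at 4.57 to 5.06. MiR-874 rose 6.30-fold, from 5.79, 5.28, 5.78 and 6.06 to 8.41, 8.34, 8.21 and 8.58. MiR-452, within Gabre on chromosome X, read 4.99, 4.01, 4.13 and 3.56 against 5.96, 5.98, 5.67 and 6.13. It was well above background on 1 progenitor array, so its 3.40-fold rise (1.76, SE 0.23) starts close to the floor, and after normexp background correction it was -0.06. MiR-674* rose by 1.31 (SE 0.20).

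A cluster in Clcn5 on chromosome X (chrX:7237695-7248440, minus strand) was singled out after its values were seen. MiR-500 rose by 0.99 (SE 0.07), from 5.90, 5.82, 5.97 and 6.08 to 6.96, 6.93, 6.80 and 7.05, with no overlap of the groups. MiR-362-5p (1.26, SE 0.27), miR-362-3p (0.65, SE 0.12) and miR-188-5p (0.49, SE 0.16) rose too, and miR-532-3p (0.31, SE 0.20, adjusted p = 0.191 in limma) was not called. MiR-362-5p came to 0.85 without progenitor replicate 4, where it sat at the floor. After normexp background correction the differences were -0.15 for miR-362-5p, -0.42 for miR-362-3p and -0.70 for miR-532-3p. MiR-532-5p (0.91, SE 0.14) passed background on 2 progenitor arrays and came to -0.47 after normexp.

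For 7 miRNAs called higher that were well above background on no progenitor array, the rise has only a bound. The bound sets the MMC mean against the higher, on each progenitor array, of the lowest signal well above background and the probe's own signal. MiR-28 was at least 1.16-fold higher in MMC and miR-762 at least 1.45-fold, and the other 5 have no bound above 1. A second probe of miR-762 differed by -0.91, against 1.25 for its brightest probe, and 3 of 120 called miRNAs with a second detected probe disagreed in sign between probes.

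**Figure D3:**
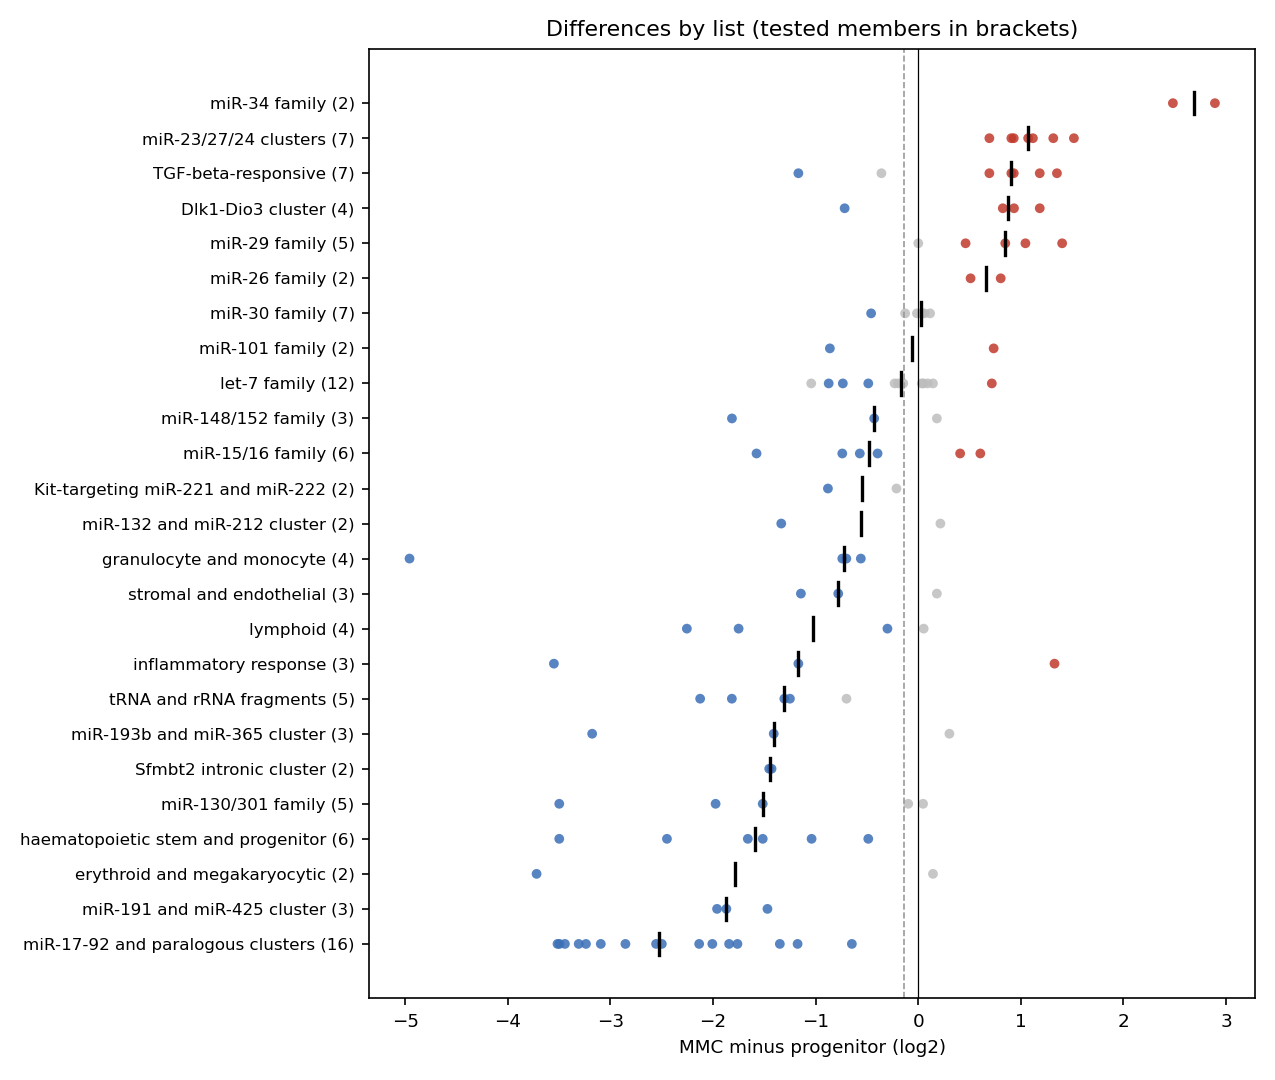
MMC minus progenitor differences (log2, x axis) of the tested members of each list with at least 2 of them, ordered by the list's median (black bar). Red points were called higher, blue points lower and grey points not called; the dashed line is the median of all 188 tested miRNAs (-0.14), and the miR-34 family (median 2.69) and the miR-17-92 clusters (median -2.53) stand at the 2 ends.

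MiRNAs with one seed did not always move together. RefSeq sequences were matched for 129 of the tested miRNAs, and 20 seeds were shared by 2 or more of them. For 8 of those seeds all members were called in one direction, and for 4 seeds members were called in both. The widest split was that of miR-146a and miR-146b, both induced by NF-kB and both repressors of Irak1 and Traf6, whose sequences are set out above. MiR-146a read 6.93, 7.92, 7.05 and 6.88 in progenitors and 3.56, 3.56, 3.90 and 3.56 in MMC, where 3 of the 4 values are the floor. MiR-146b read 9.00, 9.06, 8.87 and 8.89 in progenitors and 10.24, 10.36, 10.29 and 10.25 in MMC. Neither miRNA had overlapping groups, and the differences were -3.55 (SE 0.30) and 1.33 (SE 0.07), and both kept their direction and their call under each of the 23 alternatives. The probes differ in brightness, so the 2 levels are not set against each other.

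Among the 4 tested miRNAs whose matched sequence has the AGUGCAA seed, miR-130a (-3.50) and miR-130b (-1.51, SE 0.14) fell and miR-721 rose (1.49, SE 0.14). MiR-301a (-0.10, SE 0.17, adjusted p = 0.627 in limma) was not called. Nor was miR-301b (0.05, SE 0.17, adjusted p = 0.805 in limma), of the same family but without a matched sequence. MiR-721 read 6.43, 6.15, 6.66 and 6.69 in progenitors and 8.10, 8.01, 7.69 and 8.09 in MMC. It differs from miR-130a at 6 of 21 positions. Among the miR-15 and miR-16 family, known to repress Bcl2 and cyclins, miR-195 rose by 0.61 (SE 0.08) and miR-15a by 0.41 (SE 0.09), while miR-15b fell by 0.57 (SE 0.09) and miR-16 fell by 0.40 (SE 0.05). MiR-16 and miR-15b turned positive, at 0.78 and 0.61, when all probes set the scale. MiR-101a rose by 0.74 (SE 0.14) and miR-101b fell by 0.86 (SE 0.13), the latter reversing to 0.32 under the same scaling.

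MiR-221 and miR-222 bind the Kit transcript and are transcribed from one locus on chromosome X. MiR-222 read 7.59, 8.26, 7.73 and 8.07 in progenitors and 6.94, 7.15, 7.02 and 7.03 in MMC, a 1.84-fold fall (log2 -0.88, SE 0.15). MiR-221 read 9.28, 9.61, 9.23 and 9.23 against 9.14, 9.26, 9.08 and 9.03, and its overlapping groups gave an adjusted p of 0.0969 in limma. When all probes set the scale both came out higher in MMC, at 0.30 and 0.97. MiR-212, induced together with miR-132 by CREB, fell 2.52-fold (-1.33, SE 0.15), and miR-132 was well above background on 0 progenitor and 4 MMC arrays close to the floor and was not called (0.22, SE 0.13, adjusted p = 0.164 in limma).

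While both arms of a hairpin lie above the floor, their balance does not depend on the scale factor, since both are read on the same array. With an arm at the floor the balance does depend on it. Of 28 hairpins with both arms tested, the difference between the arms' log2 signals changed in 15 (53.6%), in favour of the first-named arm in 8 and of the second in 7. Of the 16 with both arms measured in both groups 8 changed. Only the change is used, because 2 probes cannot be compared in level.

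In the miR-17 hairpin, miR-17 minus miR-17* was 1.29, 1.05, 1.16 and 0.93 on the progenitor arrays and -0.43, -0.56, -0.76 and -0.42 on the MMC arrays. Both arms fell, miR-17 by 3.50 and miR-17* by 1.84, and the change of -1.65 (SE 0.12, adjusted p = 2.82e-08 in limma) is a 3.15-fold shift away from the guide strand. The miR-20a hairpin of the same cluster changed in the same direction by less, at -0.54 (SE 0.10), with miR-20a* close to the floor in MMC. In the miR-15b hairpin the shift was the other way: miR-15b* fell by 1.58 and miR-15b fell by 0.57, a change of 1.01 (SE 0.07) in favour of miR-15b. In the miR-140 hairpin, known from cartilage, miR-140 rose by 0.45 (SE 0.09) and miR-140* fell by 0.38 (SE 0.11), and the change was 0.82 (SE 0.08). That hairpin's arm differences were 0.12, 0.04, 0.17 and 0.30 in progenitors and 0.90, 1.00, 1.00 and 1.01 in MMC, without overlap.

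For miR-21 and miR-22 the second arm passed background on 0 of 4 progenitor arrays and 4 of 4 MMC arrays, so the shifts of 1.71 (SE 0.23) and 1.41 (SE 0.12) rest on values at or near the floor. The same holds for miR-19a (-2.66, SE 0.21), whose second arm miR-19a* was above background on no MMC array, and for the second arm of miR-18a, miR-18a*. After normexp background correction 23 of the 28 hairpins were called in place of 15.

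**Figure D4:**
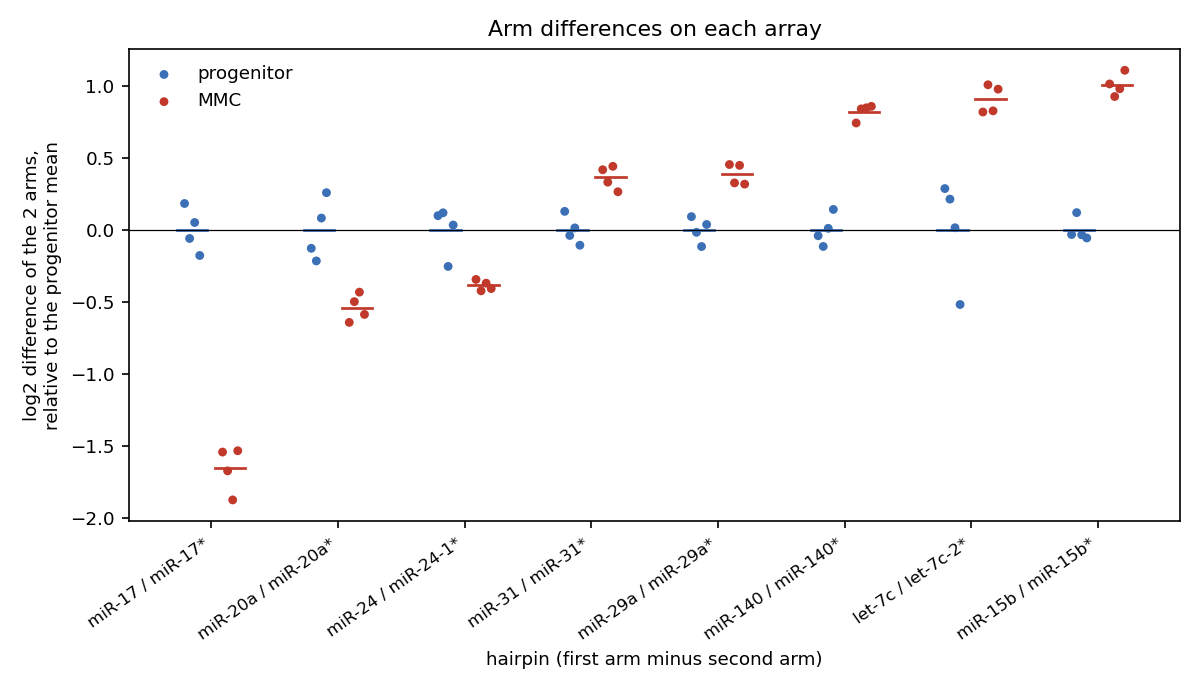
Difference between the log2 signals of the 2 arms of a hairpin on each array, set to 0 at the progenitor mean, for the 8 called hairpins with both arms measured in both groups; blue points are progenitor arrays, red points MMC arrays and bars group means. MiR-17 against miR-17* shows the largest loss of the first arm (-1.65) and miR-15b against miR-15b* the largest gain (1.01).

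BMMC arrays, grown for 4 weeks without the mucosal cytokines, stand between the 2 groups. Of the 188 miRNAs, 140 differed between BMMC and progenitors (74.5%) and 45 between MMC and BMMC (23.9%), with medians of -0.38 and 0.04. Where a change falls along the path depends on the scaling, which moved BMMC down by 2.01 on the log2 scale relative to progenitors and by 1.01 relative to MMC. With no scaling the medians of the steps were 1.45 and -0.87, and with all probes setting the scale 0.96 and -0.23. Each step was therefore refitted under 7 other settings, chosen after the data were seen. The 2 steps share the BMMC arrays, so their values are set side by side without a test of their relation. MiR-17 was at 8.94, 5.69 and 5.44 in progenitors, BMMC and MMC, and its second step of -0.25 (SE 0.18, adjusted p = 0.361 in limma) was not called. MiR-130a was at 7.92, 4.41 and 4.43, and miR-34a at 5.97, 8.84 and 8.87, both with second steps near 0. With no scaling the second steps of these 3 were called lower, at -1.26 for miR-17 and -0.99 for miR-34a. MiR-223 went from 12.35 to 8.23 and then to 7.39 (-0.85, SE 0.19, adjusted p = 0.00509 in limma). The first steps of miR-223, miR-17, miR-130a and miR-34a kept their direction and their call under all 7 other settings.

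MiR-21 was at 12.50, 12.74 and 13.85, with steps of 0.24 and 1.11 (SE 0.09, adjusted p = 1.60e-06 in limma for the second). Its steps were 2.25 and 0.10 with no scaling, and 1.22 and 0.06 after quantile normalisation, so the stage of its rise is not settled. MiR-452 was at 4.17, 4.74 and 5.93, with a second step of 1.20 (SE 0.23), against 0.19 with no scaling. MiR-365 was at 7.77, 7.23 and 6.37, and its second step of -0.86 was called lower under all 7 other settings, while its first step of -0.54 was 1.46 with no scaling. MiR-193b, from the same cluster, was at 7.46, 5.72 and 4.28, with steps of -1.75 and -1.43, against 0.26 and -2.44 with no scaling. After normexp its second step was -0.21 and not called. MiR-24-1* (0.57, then 0.75) and miR-23b (1.15, then 0.37) had second steps of -0.26 and -0.64 with no scaling. After normexp the first step of miR-24-1* was -0.70.

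MiR-142-3p was at 13.75, 12.67 and 13.19, a step of -1.08 and then one of 0.52 (SE 0.08, adjusted p = 0.000378 in limma). With no scaling both signs turned, to 0.93 and -0.49. MiR-17* was at 7.83, 5.48 and 5.99, with steps of -2.35 and 0.51, and its second step was -0.50 with no scaling. MiR-140 was at 7.63, 7.48 and 8.08, where the first step of -0.15 was not called and the second of 0.60 was, against 1.86 and -0.41 with no scaling. MiR-146b was at 8.96, 10.48 and 10.29, with a second step of -0.19 (SE 0.07) that was not called, and miR-29b at 9.60, 11.01 and 11.00. The first steps of miR-146b and miR-29b were called higher under all 7 other settings.

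**Figure D5:**
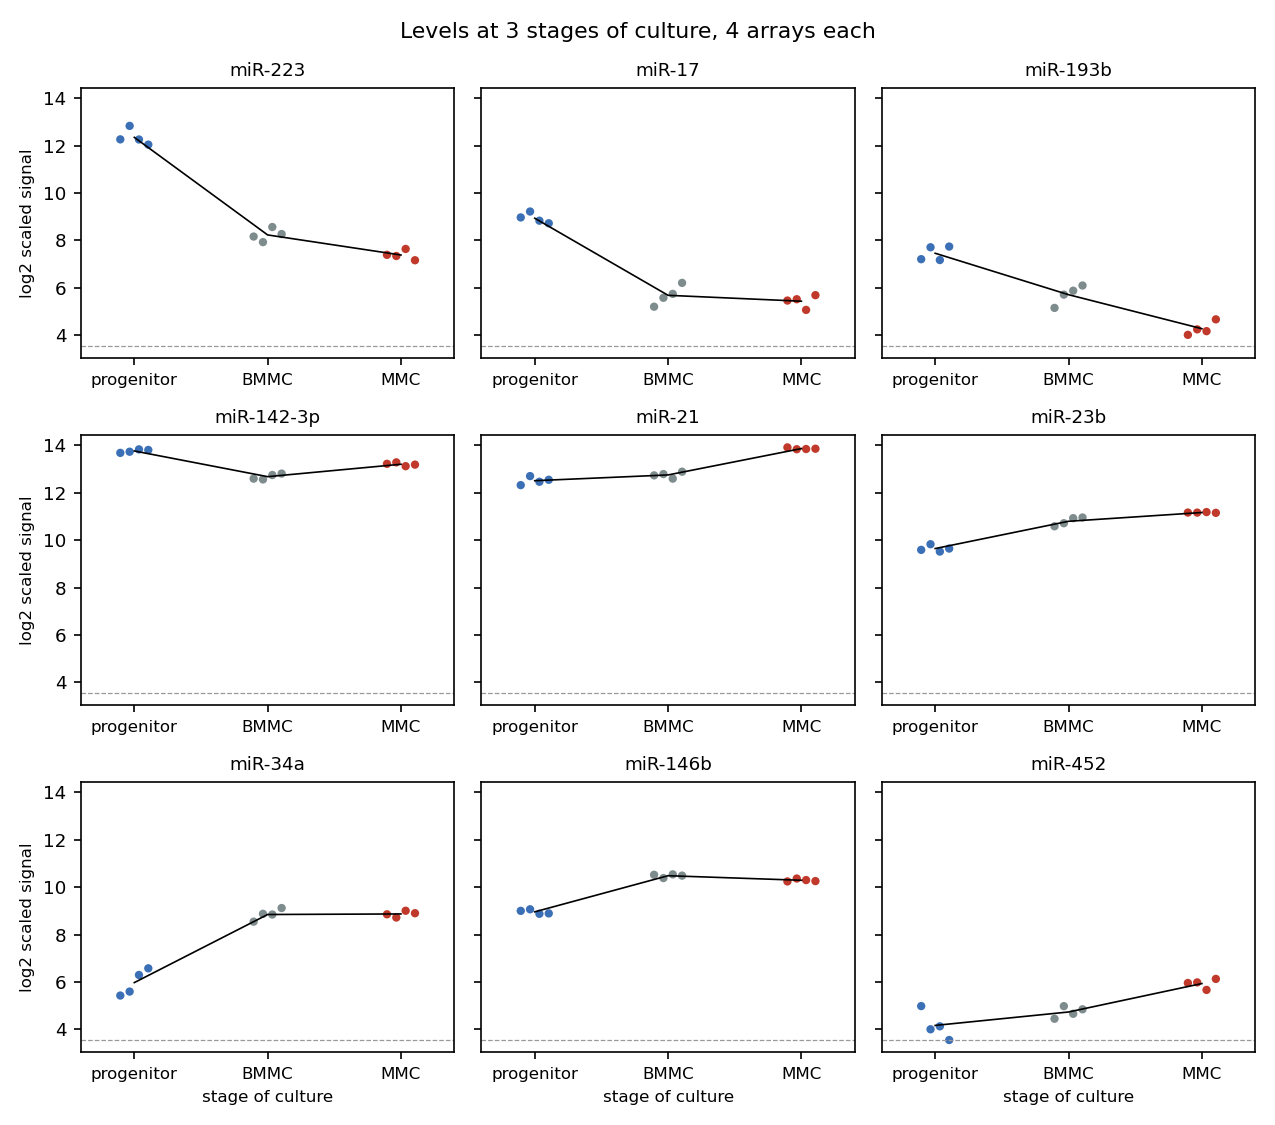
Log2 scaled signal of 9 miRNAs on the 4 arrays each of progenitors (blue), BMMC (grey) and MMC (red), with a line through the group means and the floor as a dashed line. On this scale miR-17 and miR-34a had moved by the BMMC stage (first steps of -3.25 and 2.87), while the steps of miR-21 (2.25 and 0.10) and miR-142-3p (0.93 and -0.49) differ with no scaling.

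Near the 2-fold line, miR-500 (0.99), miR-29c (1.05) and miR-24 (0.93) were called at differences of about 1 on the log2 scale, and all 3 had standard errors of 0.06 to 0.09. Of the 137 calls 12 had overlapping groups, of which miR-10a, miR-494 and miR-188-5p are described above.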

How the data were processed

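One-colour (Cy3) miRNA arrays were each given 100 ng of RNA whose integrity number exceeded 8.0, per the labels' protocols. The spot intensity values the authors deposited came from Agilent Feature Extraction 9.5.1.1, per the file headers, and are background-subtracted, linear and not scaled between arrays. The authors also deposited a log2 value table, which equals the per-miRNA total signal raised to at least 1 after centring of rows and arrays; its array medians run from -0.98 to 0.82, and it served as an alternative. Genome build and probe design notes are not given in the sources used here.

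Each array holds 11540 miRNA spots, 1712 probes and 567 mouse miRNAs, and no spot was saturated. Spots of a probe were averaged without outlier flags. Arrays were scaled by the 75th percentile of the 205 probes well above background on all 16 arrays, signals under 11.8 were set to 11.8, log2 was taken, and each miRNA was represented by its brightest probe. A miRNA was tested if well above background on 3 arrays of progenitors or MMC. Differences come from limma 3.58.1 (R 4.3.3) over 16 arrays and 4 groups (lmFit and eBayes; residual degrees of freedom 12, prior 1.65), with Benjamini-Hochberg adjustment over all 188 miRNAs (over 28 hairpins for arms). The number of arrays, 4 per group, limits the precision. Each slide holds 2 arrays of each group. The fit was tested on simulated data.

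The comparison, the lists and the naming rule were chosen with earlier results of these data known. The rule takes the 15 largest rises and falls without overlap, 18 fixed miRNAs, up to 4 miRNAs of lowest p per list, 8 hairpins and those nearest to 2-fold; the text names part of them, the further members of their clusters and seed groups, and miR-721, miR-28 and miR-762. Alternatives changed the scaling, background correction, probe summary, source, floor, filter, arrays and blocks, one at a time. RefSeq sequences (GRCm38.p6) were matched by miRNA name.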

Additional observations from a re-analysis of the deposited data

Results flagged for a closer look

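Of the groups of 4 arrays examined (188 of them), 16 had 1 array whose gap to its nearest neighbour exceeded 0.829 of the group's range, where chance alone gives about 1 in 20. Of these, 11 were progenitor groups, and in 6 of those the array was replicate 4.

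Progenitor replicate 2 was the highest array for miR-146a (7.92, next 7.05), miR-15b* (6.39, next 6.18), miR-15b (10.56, next 10.20), miR-221 (9.61, next 9.28) and miR-140* (7.90, next 7.40). Progenitor replicate 4 was lowest, at the floor of 3.56, for miR-19a* (next 4.37) and for miR-362-5p (next 5.06). The same array was highest for miR-27b (9.63, next 9.49) and miR-532-3p (4.72, next at the floor of 3.56). On that array the lowest unscaled signal called well above background was 39.2 (next 10.7), and the SD of the negative control spots was 5.59 (next 2.67).

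Among the MMC arrays, replicate 3 was highest for miR-146a (3.90, the others at the floor) and miR-181a (6.53, next 6.38), replicate 4 for miR-706 (3.73, the others at the floor), and replicate 2 for miR-21* (3.87, next 3.56). The SD of the negative control spots was highest on MMC replicate 4, at 3.53 (next 2.30).

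A probe set for a mouse gammaherpesvirus miRNA, mghv-miR-M1-2, which no comparison above uses, was well above background on 5 of the 8 arrays, 2 of progenitors and 3 of MMC. Its mean log2 scaled signals were 4.37 and 3.70.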

How the results depend on the processing

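The direction of many differences depended on the scaling, including some above 2-fold (miR-106b, miR-155 and miR-10a). The largest called difference that was also called in the opposite direction under some setting was 1.25. That of miR-452 (1.76) changed sign after normexp (-0.065) without such a call. The counts higher and lower in MMC were 56 and 81, and became 112 and 40 with all probes setting the scale, 110 and 46 without scaling, 100 and 44 in the deposited table and 33 and 132 after normexp. With all probes setting the scale, differences turned to 0.0024 (miR-106b), 0.61 (miR-15b), 0.010 (miR-155), 0.14 (miR-10a), 0.30 (miR-222), 0.97 (miR-221), 0.32 (miR-101b), 0.62 (miR-142-3p), 0.80 (miR-140*), 0.78 (miR-16) and 1.08 (miR-301a). Without scaling they turned to 0.43 (miR-15b), 0.12 (miR-222), 0.78 (miR-221), 0.14 (miR-101b), 0.44 (miR-142-3p), 0.62 (miR-140*), 0.60 (miR-16) and 0.90 (miR-301a). In the deposited table they turned to 0.26 (miR-15b), 0.64 (miR-221), 0.30 (miR-142-3p), 0.48 (miR-140*), 0.36 (miR-16) and 0.83 (miR-301a). After normexp they turned to -0.38 (miR-181a), -0.67 (miR-132), -0.065 (miR-452), -0.42 (miR-362-3p), -0.15 (miR-362-5p), -0.47 (miR-532-5p), -0.70 (miR-532-3p), -0.35 (miR-28) and -0.37 (miR-762), and 23 hairpins were called in place of 15. The cause of these changes was not tested.

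Leaving out each array in turn gave 135 to 145 calls, 56 to 62 higher and 79 to 83 lower, and 14 to 20 hairpins. Of the 137 calls 133 stayed called without each array in turn. The difference in miRNAs well above background per array ran from 4.58 to 18.25, with the lowest value without progenitor replicate 4. Same-numbered progenitor and MMC arrays had deviations that correlated at 0.05, 0.05, -0.10 and -0.23, and differently numbered ones at -0.34 to 0.29. No pairing by number showed, but so few arrays cannot exclude it. With the replicate number as a block there were 138 calls (56 higher, 82 lower) and 15 hairpins. Values near the floor of 3.56 limit what can be measured for dim miRNAs.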
